A study of Mus musculus with 4 samples.

Results

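The genes described here are 44 genes of the cell cycle, chosen by name and not by their values, out of 27340 gene names measured on the arrays. They comprise 15 genes of the S-phase class (cyclin E, origin licensing, the replicative helicase and nucleotide supply), 26 genes of the mitotic class (mitotic entry, chromosome segregation and cytokinesis) and 3 genes in neither class (the cyclins Ccnd1 and Ccnd2 and the DNA polymerase Polq). Each gene is represented by its brightest probe over the 4 arrays. All 44 had a probe under the current symbol, and 38 were well above background on all 4 arrays, namely 14 of 15 S-phase genes, 22 of 26 mitotic genes and 2 of 3 in neither class.

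RNA came from alveolar type II cells, the surfactant-secreting epithelial cells of the lung alveolus, sorted on a flow cytometer from lungs of mice labelled female. The 4 groups were wild type (WT) mice without tumor inoculation, WT mice inoculated with tumor, Tlr3-deficient mice without inoculation and Tlr3-deficient mice inoculated with tumor. Tlr3 encodes an endosomal receptor for viral RNA. The tumor was Lewis lung carcinoma (LLC), a mouse lung cancer line, placed under the skin, and lungs were taken 2 weeks later, and nothing in the labels speaks of tumor cells in the lung. The mutant is written Tlr3-/- in the labels, which name no tissue-specific driver of the deletion. The age, the strain background, the markers of the cell sort and the number of mice behind an array are not in the labels. Each group was hybridised to 1 array, so no difference below has a replicate check and none carries a p-value. The design addresses how a tumor elsewhere in the body changes the expression of type II cells, and whether Tlr3 matters for that change.

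Progress through the cell cycle is driven by cyclins bound to their kinases. Cyclins D and E lead a resting cell to commit to DNA replication, when origins are licensed by Cdc6, Cdt1 and the Mcm2 to Mcm7 helicase and the E2F factors switch on the S-phase genes. The DREAM complex represses cell cycle genes in resting cells, and the mitotic genes are switched on later, in G2, by MuvB with B-Myb and by Foxm1, and their RNA is removed or diluted as cells divide. In the adult lung type II cells divide rarely, and they serve as stem cells of the alveolus that enter the cycle after injury to the type I cells.

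The 2 classes also differ in the DNA before their start sites. In the stretches below, 150 bases before to 20 bases after the annotated start (RefSeq, GRCm38.p6), capitals mark every match to 3 motifs on either strand. These are the CHR element (TTTGAA or TTCGAA), to which the DREAM complex binds, the CCAAT box (CCAAT), to which NF-Y binds, and the E2F motif (TTTCCCGC, TTTGGCGC, TTTCGCGC or TTTGCCGC). The first 4 genes were lower with tumor in Tlr3-deficient cells (Ccnb2, Ube2c, Kif11 and Kntc1), Cdk1 and Cdc20 are mitotic genes with smaller differences there, and Mcm6 and Cdc6 represent the S-phase class. They lie at chr9:70421535-70421704, chr2:164769779-164769948, chr19:37376232-37376401, chr5:123749576-123749745, chr10:69352893-69353062, chr4:118437324-118437493, chr1:128359686-128359855 and chr11:98908001-98908170, and each is written 5′ to 3′ on the strand of its gene, which is the minus strand for Ccnb2, Cdk1, Cdc20 and Mcm6 and the plus strand for the others.
Ccnb2: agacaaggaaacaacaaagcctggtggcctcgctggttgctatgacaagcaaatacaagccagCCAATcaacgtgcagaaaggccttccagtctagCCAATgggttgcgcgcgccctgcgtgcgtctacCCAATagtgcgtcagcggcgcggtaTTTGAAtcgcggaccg
Ube2c: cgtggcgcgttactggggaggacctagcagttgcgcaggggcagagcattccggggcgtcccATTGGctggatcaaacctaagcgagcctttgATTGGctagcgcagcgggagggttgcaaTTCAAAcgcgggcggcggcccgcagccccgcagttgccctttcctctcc
Kif11: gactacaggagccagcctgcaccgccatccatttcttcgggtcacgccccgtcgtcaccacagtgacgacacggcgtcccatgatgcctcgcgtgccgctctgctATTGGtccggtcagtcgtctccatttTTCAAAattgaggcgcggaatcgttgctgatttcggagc
Kntc1: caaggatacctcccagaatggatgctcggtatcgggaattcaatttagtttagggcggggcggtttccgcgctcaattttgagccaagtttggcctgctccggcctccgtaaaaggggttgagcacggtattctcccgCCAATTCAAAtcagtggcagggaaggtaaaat
Cdk1: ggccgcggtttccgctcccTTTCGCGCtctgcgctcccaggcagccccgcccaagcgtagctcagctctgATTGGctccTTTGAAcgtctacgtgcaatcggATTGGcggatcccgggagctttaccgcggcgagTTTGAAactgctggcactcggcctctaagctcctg
Cdc20: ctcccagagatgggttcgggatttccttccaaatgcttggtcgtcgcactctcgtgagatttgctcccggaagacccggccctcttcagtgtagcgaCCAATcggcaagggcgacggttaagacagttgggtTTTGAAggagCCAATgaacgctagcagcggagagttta
Mcm6: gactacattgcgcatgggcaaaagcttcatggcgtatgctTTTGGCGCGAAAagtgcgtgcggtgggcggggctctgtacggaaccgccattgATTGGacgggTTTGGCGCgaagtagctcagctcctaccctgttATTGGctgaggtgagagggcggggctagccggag
Cdc6: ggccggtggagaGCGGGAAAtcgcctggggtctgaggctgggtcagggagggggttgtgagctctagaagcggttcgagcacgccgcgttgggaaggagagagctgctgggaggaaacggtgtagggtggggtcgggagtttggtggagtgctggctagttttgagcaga
In Kif11 a CCAAT box in reverse orientation stands at -45 and a CHR at -19, counted to the first base of the match from the start site. In Kntc1 the CCAAT box at -12 overlaps the CHR at -8. Cdk1 holds the CHR at -71 and -15, and it is the only mitotic gene of 21 with a window that also holds the E2F motif, at -131. Mcm6 holds the E2F motif at -110, -106 and -47 and no CHR.

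Of the 44 genes, 35 had a promoter window of 300 bases in the RefSeq table, from 250 before to 50 after the start. A CHR stood in the window of 17 of 21 mitotic genes and 3 of 13 S-phase genes, against 21.7% of 27025 genes with a window. The CCAAT box stood in 19 of 21 mitotic and 9 of 13 S-phase genes, against 41.1% of all. Both motifs stood together in 17 of 21 mitotic and 3 of 13 S-phase genes, against 8.61% of all, and they overlapped in 1 mitotic gene, Kntc1. The E2F motif stood in 1 of 21 mitotic and 6 of 13 S-phase genes, against 2.60% of all. Cdc20, Bub1 and Bub1b, none of them lower by more than 0.21 there, hold a CHR and a CCAAT box too. A match to these letters is a description of the window and was not tested for binding.

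Before the values, the arrays were checked. All 12 markers of type II cells were well above background on every array, and 0 of 12 differed by 2-fold in any of the 4 comparisons. The targeted gene Tlr3 gave low signal throughout, and the brighter of its probes lay at -3.84, -3.87, -5.36 and -5.21 in the array order used throughout, WT without and with tumor, then the array labelled Tlr3-deficient without tumor and the Tlr3-deficient tumor array. It was thus lower on both arrays labelled Tlr3-deficient, but still well above background on the array with tumor. The array labelled Tlr3-deficient without tumor goes against its label of female. Xist, which coats the inactive X chromosome, lay at 4.13, 4.12, -3.97 and 3.89, and Uty, Kdm5d, Eif2s3y and Ddx3y, all on the Y chromosome, were detected on that array alone. For the tumor comparison in Tlr3-deficient cells, the medians and calls of both classes, of the further mitosis genes and of some single genes are therefore also given with the WT array without tumor in its place. Other values that rest on that array are given with it alone. In every comparison with that array, the difference in apparent sex cannot be told apart from that in tumor or genotype. All levels here and below are log2 intensities minus the array's own 75th percentile, which was an intensity of 524.5, 754, 716 and 852, and 61.0% to 65.4% of gene spots were well above background with 0 saturated. The arrays lay on 3 slides, with WT tumor and the array labelled Tlr3-deficient without tumor sharing the second, and differences between slides cannot be told apart from those between groups. Only spot-level precision is known. The scanner's error of a difference had a median of 0.21 over mitotic and 0.20 over S-phase genes, and it is given after ± for single genes. The measured SD of a difference over repeated spots was 0.29 for tumor in WT and for genotype without tumor. It was 0.11 for tumor in Tlr3-deficient cells and for genotype with tumor. Where the WT array without tumor is used, the median scanner error is thus smaller than the scatter of spots.

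In Tlr3-deficient cells the mitotic genes were lower on the tumor array and the S-phase genes were not. Of 26 mitotic genes, 24 were lower with tumor, at a median log2 difference of -0.92, while 8 of 15 S-phase genes were lower, at a median of -0.01. The median over all 27340 genes was -0.15, so the mitotic median lay 0.90 below the S-phase median and also below that of all genes. Differences beyond 2 times their own scanner error were found in 17 mitotic genes on the lower and 1 on the higher side, out of 23 measured on both arrays. For S-phase genes these counts were 4 and 1 of 15. In bulk RNA, fewer cycling cells and less RNA per cell cannot be told apart.

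Called below means a difference of 2-fold or more in a gene detected well above background on either array compared. Of 43 genes that could be called, 13 were lower and 0 were higher with tumor in Tlr3-deficient cells. Among all genes the corresponding shares were 3.88% lower and 4.54% higher. The 13 were 10 mitotic genes (Mki67, Top2a, Ccnb1, Ttk, Cenpa, Kntc1, Aurkb, Kif11, Racgap1 and Tpx2), the cyclins E Ccne1 and Ccne2, and Ccnd2. Several sit close to the threshold. Mki67 at 2.02-fold, Tpx2 at 2.04-fold, Cenpa at 2.09-fold and Top2a at 2.11-fold were just past it, and Ccna2 at 1.96-fold, Ccnb2 at 1.92-fold and Ube2c at 1.90-fold just missed it. Normexp background correction starts from the mean spot and local background signals and adds 50 to each intensity, which shrinks dim genes. With it 5 remained past 2-fold, namely Kntc1 at -1.70, Ttk at -1.55, Ccnd2 at -1.32, Kif11 at -1.06 and Ccne1 at -1.0.

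**Figure D1:**
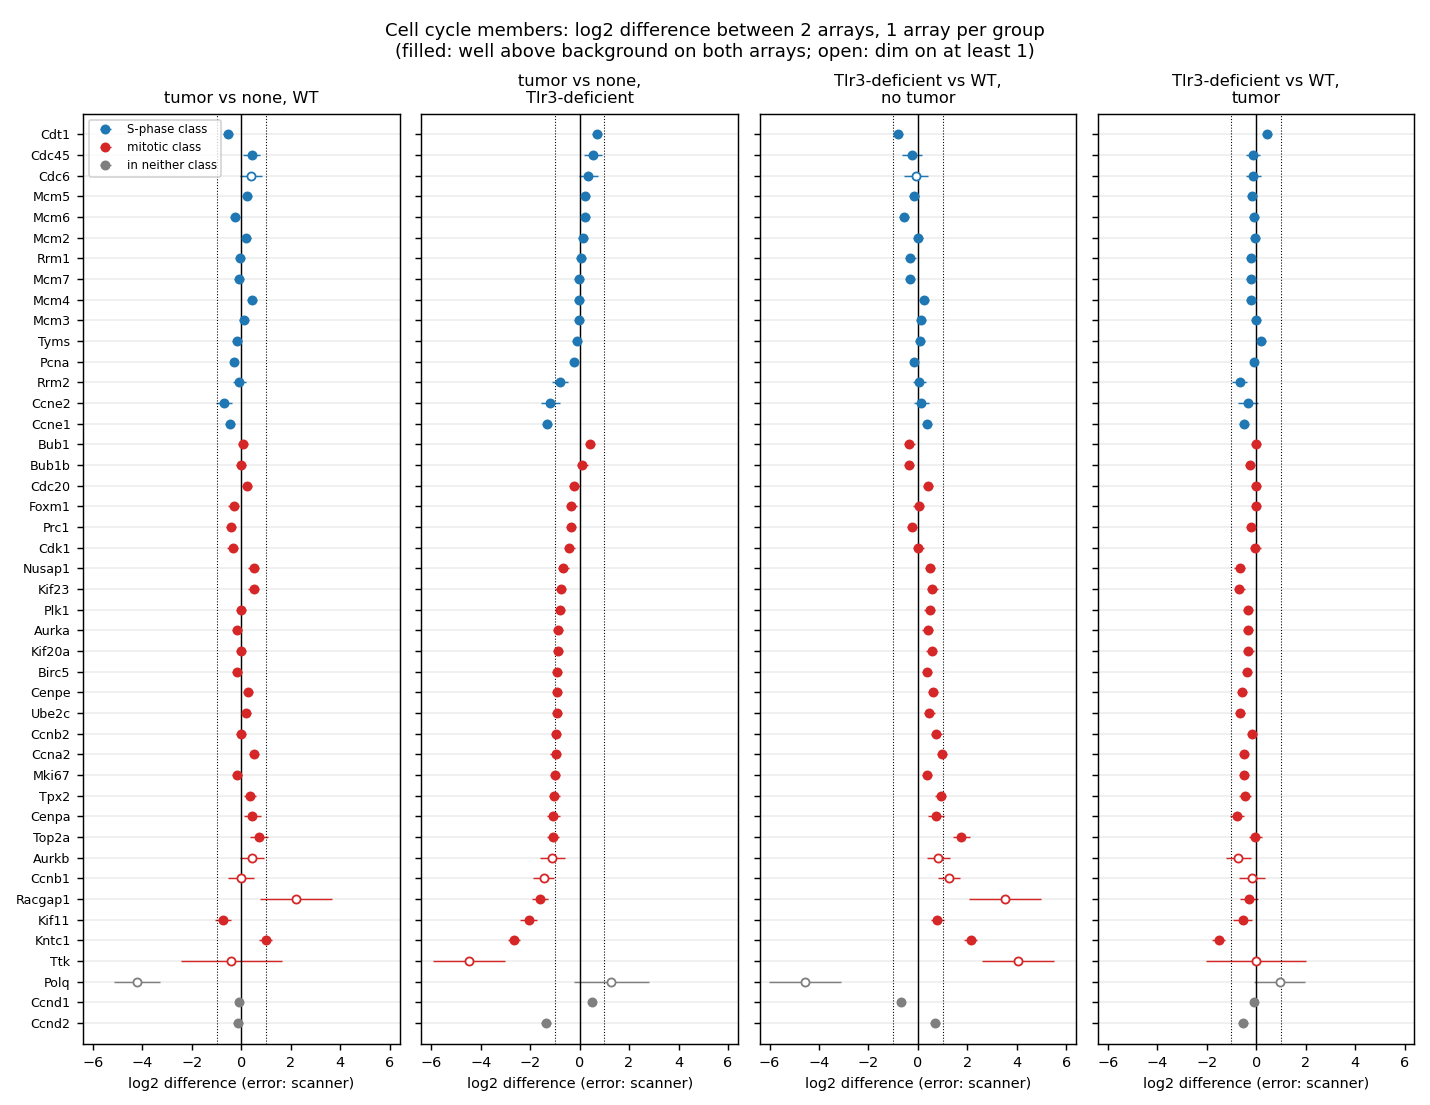
Log2 difference of each of the 44 genes (rows, ordered by class and by the tumor difference in Tlr3-deficient cells) in the 4 comparisons (panels), with bars of 1 scanner error, filled points for genes well above background on both arrays and dotted lines at 2-fold. In the second panel 24 of 26 mitotic genes lie left of 0 and 10 are called lower, while the S-phase genes lie on both sides.

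In WT cells no such shift was seen. The mitotic median was 0.03 (-0.11 with median centring, -0.05 with normexp and 0.45 with spike-in centring), with 13 of 26 genes lower, and the S-phase median was -0.07, with 9 of 15 lower, against -0.08 over all genes. Of 43 genes that could be called, 0 were higher and 1 was lower, where 5.58% of all genes were called higher and 1.55% lower. Of these calls over all genes 78.2% were higher, against 63.7% with median centring and 95.7% with spike-in centring. The exception was Polq, which encodes the polymerase of microhomology-mediated end joining. Its brightest probe lay at -2.61, -6.83, -7.17 and -5.89 and was well above background on the WT array without tumor alone, so it was at least 6.5-fold lower in WT with tumor. The other probe of Polq was dim on all 4 arrays.

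The difference between the tumor changes of the genotypes, Tlr3-deficient minus WT, had a median of -1.14 over the mitotic genes and -0.01 over the S-phase genes. It was below 0 in 23 of 26 and 8 of 15 genes, and its median over all genes was -0.04. No test of this difference is possible with 1 array per group, and it has no value without the array labelled Tlr3-deficient without tumor. The replicate-spot SD of such a difference was 0.31.

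**Figure D2:**
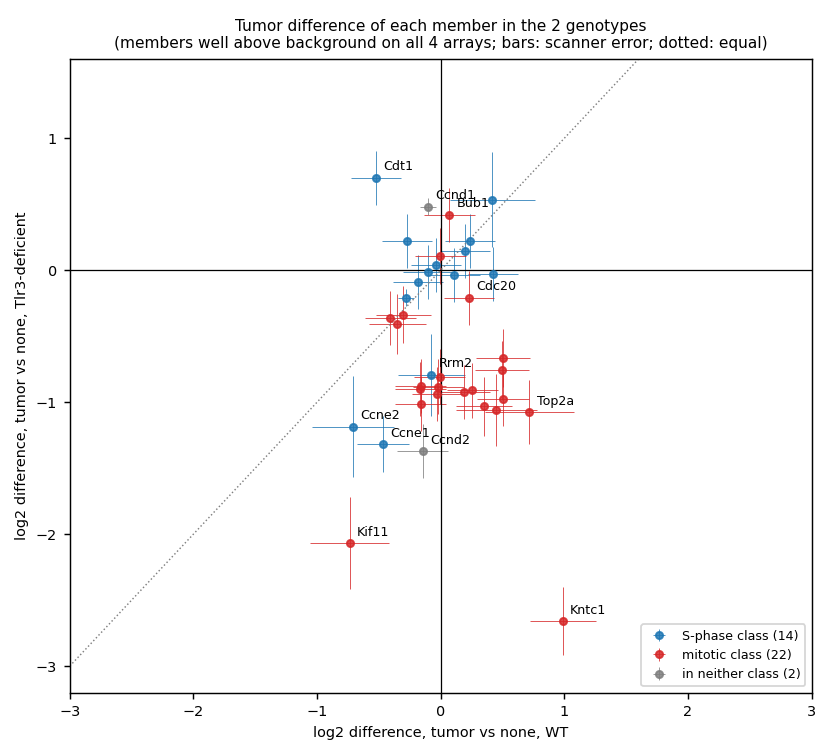
Log2 tumor difference in Tlr3-deficient cells (vertical) against that in WT cells (horizontal) for the 38 genes detected on every array, with bars of 1 scanner error and a dotted line where both are equal. Kntc1 lies farthest from that line, at 0.99 in WT and -2.66 in Tlr3-deficient cells, and 20 of the 22 mitotic genes shown lie below 0 on the vertical axis.

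The order of the arrays shows which of them carries the difference. Among the 22 mitotic genes well above background throughout, 18 were highest on the array labelled Tlr3-deficient without tumor and 17 were lowest on the Tlr3-deficient tumor array. Relative to each gene's own mean over the 4 arrays, the median mitotic gene stood at -0.05, -0.01, 0.45 and -0.38. The WT arrays thus lay close together in the middle, and the arrays labelled Tlr3-deficient stood apart from them on opposite sides. The 14 S-phase genes showed no common order, as 5, 4, 5 and 0 of them were highest and 2, 1, 6 and 5 lowest on the 4 arrays.

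**Figure D3:**
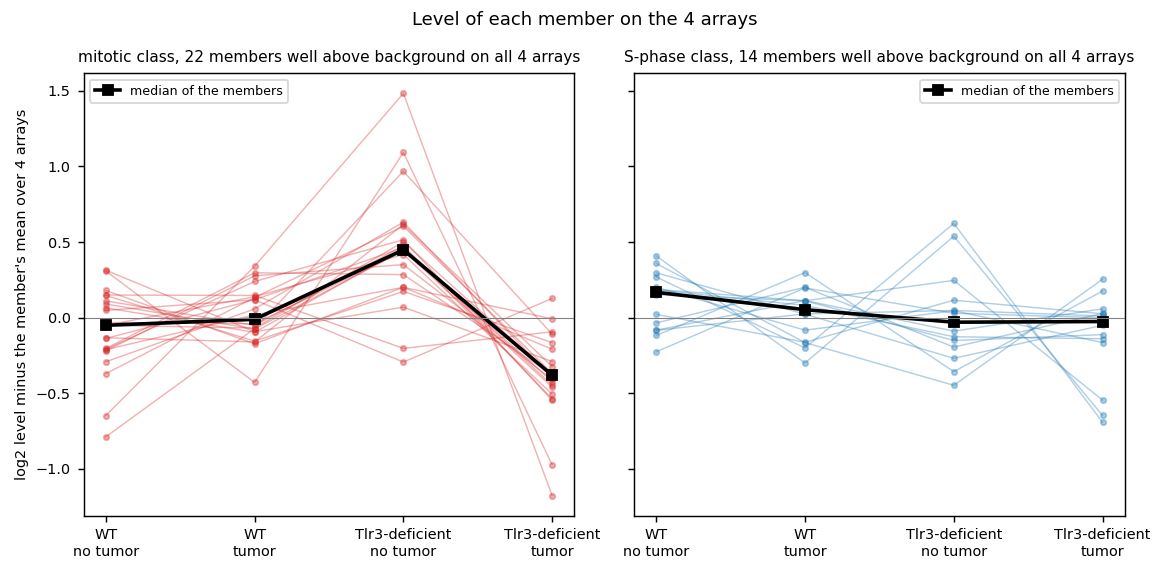
Log2 level of each gene on the 4 arrays (horizontal axis, 1 array per group) minus that gene's mean over them (vertical axis), with thin lines for single genes and the black line for the median. The median of the 22 mitotic genes is 0.45 on the array labelled Tlr3-deficient without tumor and -0.38 on the Tlr3-deficient tumor array, while that of the 14 S-phase genes stays between -0.03 and 0.17.

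Since the highest array is also the one that goes against its label, the Tlr3-deficient tumor array was set against WT without tumor instead, a comparison in which genotype differs too. That WT array had the largest scatter of repeated spots, an SD of 0.361 in array columns 1 to 51, so its single values are less precise. On the 75th percentile scale the mitotic median was then -0.31, with 21 of 26 genes lower. The S-phase median was -0.10, with 8 of 15 lower, against -0.11 over all genes. Spike-in probes lay at 3.50, 3.09, 3.13 and 3.04 on that scale, with WT without tumor farthest from the others. The sign of these medians may therefore depend on the scaling, while a constant shift of an array leaves the gaps between them unchanged. Quantile normalization and normexp, which can change the gaps, were not run for this comparison. The mitotic median was thus nearer to that of all genes than in the comparison with the array labelled Tlr3-deficient, and of 41 genes that could be called 3 were lower, Kif11 at -1.28, Ccne2 at -1.05 and Polq, and 0 were higher, beside 3.18% and 6.89% of all genes. Kntc1, lowest of the measured genes against the array labelled Tlr3-deficient, was then at -0.53, Mki67 at -0.65, Top2a at 0.68 and Ccnd2 at -0.70. Racgap1 was at 1.92, but its probe was not well above background in WT without tumor, so the difference is only a bound of at least 1.24-fold higher. Ttk, Ccnb1 and Aurkb were well above background on neither array. Of the further mitosis genes described below, 34 of 46 were lower in this comparison at a median of -0.22, with 0 of 38 called lower and 3 higher (Espl1, Hmmr and Pttg1, named after their values were seen), and the further replication genes had a median of -0.05. Without tumor, the array labelled Tlr3-deficient differed from WT by a median of 0.56 over the mitotic genes, with 3 of 26 lower, and by -0.08 over the S-phase genes, against -0.01 over all genes. There 5 of 44 genes were called higher (Top2a, Ccnb1, Ttk, Kntc1 and Racgap1) and 1 lower (Polq), where 5.89% of all genes were called higher and 2.33% lower. Other probes disagree for Racgap1 and Top2a. The call of Racgap1 rests on a probe at 3.52 that was not detected in WT, while its second probe, detected on both arrays, gave -0.23, and Top2a gave 1.76 with one probe and 0.34 with another. This comparison cannot be given without the array in question. With tumor, the Tlr3-deficient array differed from WT by a median of -0.33 over the mitotic genes, with 25 of 26 lower, and of -0.12 over the S-phase genes, with 13 of 15 lower, against -0.03 over all genes. Of 42 genes that could be called there, 1 was lower (Kntc1) and 0 were higher, beside 2.60% and 2.93% of all genes. These comparisons share arrays with the tumor comparisons and are not independent of them.

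The proliferation markers come first among single genes. Mki67 encodes Ki-67, a coat protein of mitotic chromosomes and the usual mark of cycling cells, and its probe lies at chr7:142881591-142881650 (mm9, as the array annotation gives it). It lay at 0.15, -0.02, 0.51 and -0.50. The WT arrays differed by -0.16 ± 0.20 and the Tlr3-deficient arrays by -1.01 ± 0.20, so the highest and the lowest value are those of the arrays labelled Tlr3-deficient. A second, dimmer Mki67 probe gave 0.97 and -1.11 for the same comparisons, so the probes disagree on WT and not on Tlr3-deficient cells. Top2a, the topoisomerase that untangles sister chromatids, is measured at chr11:98857244-98858058 and lay at -4.66, -3.94, -2.90 and -3.98. Its differences were 0.72 ± 0.36 in WT and -1.08 ± 0.24 in Tlr3-deficient cells, and without tumor it was 3.38-fold higher on the array labelled Tlr3-deficient, a difference that its second probe put at 0.34 on the log2 scale. Its level on the Tlr3-deficient tumor array was within error of that of WT with tumor and 0.68 above that of WT without tumor. The second probe also gave -1.04 in Tlr3-deficient cells, but only 0.18 in WT.

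Mitotic entry is set by cyclins A and B, their kinase Cdk1, and the kinases Aurka and Plk1. All 7 genes of this group were lower with tumor in Tlr3-deficient cells, at a median of -0.88, against -0.03 in WT. Ccna2 lay at -2.29, -1.79, -1.32 and -2.29, and Ccnb2 at -0.49, -0.52, 0.26 and -0.68. Both stood highest on the array labelled Tlr3-deficient without tumor, and Ccna2 did not differ between WT without tumor and the Tlr3-deficient tumor array. Ccnb1, the partner of Cdk1 at mitotic entry, lay at -5.28, -5.29, -4.02 and -5.46 and was well above background on the array labelled Tlr3-deficient without tumor alone, which makes it at least 2.48-fold lower with tumor. A second Ccnb1 probe, dimmer on average, was also well above background on WT with tumor and gave -1.31 in Tlr3-deficient cells and 0.95 in WT, where the first gave -0.01. Aurka, which matures centrosomes, lay at -1.09, -1.25, -0.70 and -1.58, and Plk1, the polo kinase, at -1.17, -1.18, -0.70 and -1.51. They were 1.84-fold and 1.75-fold lower with tumor in Tlr3-deficient cells and close to equal on the WT arrays. Cdk1 itself lay at -2.87, -3.22, -2.85 and -3.26, and Foxm1, an activator of the G2 genes, at -2.42, -2.73, -2.40 and -2.73. For these genes the tumor differences were alike in both genotypes, at -0.35 and -0.41 for Cdk1 and -0.30 and -0.34 for Foxm1. With normexp they were -0.41 and -0.31 for Cdk1, but -0.02 and -0.33 for Foxm1.

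The spindle checkpoint, which delays anaphase until all chromosomes are attached, was mixed. Bub1 lay at 1.31, 1.38, 0.97 and 1.39 and was the mitotic gene with the largest difference upward in Tlr3-deficient cells, 0.42 ± 0.20. A second Bub1 probe gave 0.50 there and 0.54 in WT. Bub1b, which encodes BubR1, lay at -1.85, -1.86, -2.21 and -2.10, with a difference of 0.11. Cdc20, the activator of the anaphase-promoting complex, lay at 0.80, 1.03, 1.21 and 1.01 with a difference of -0.21, about the size of its error. Ube2c, the ubiquitin-conjugating enzyme of the same complex, lay at -0.83, -0.64, -0.36 and -1.28 and was lower by 0.92 on the log2 scale. Ttk, the checkpoint kinase Mps1, lay at -7.21, -7.62, -3.15 and -7.63. It was well above background on the array labelled Tlr3-deficient without tumor alone, and was at least 4.51-fold lower with tumor and at least 4.03-fold higher than WT without tumor.

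Among kinetochore genes, Kntc1, the Rod subunit of the complex that recruits dynein and checkpoint proteins to kinetochores, is measured at chr5:124271399-124271458 (mm9) and lay at -3.87, -2.89, -1.74 and -4.40. It was 6.32-fold lower with tumor in Tlr3-deficient cells (-2.66 ± 0.26) and 1.98-fold higher in WT (0.99 ± 0.27), and it was 4.38-fold higher on the array labelled Tlr3-deficient than in WT without tumor. With tumor it was 2.86-fold lower in Tlr3-deficient than in WT cells, the only called gene of that comparison. No other probe measures it. Cenpa, the histone variant that marks centromeres, lay at -4.01, -3.56, -3.28 and -4.35, and Cenpe, the kinetochore motor, at -1.90, -1.64, -1.29 and -2.20. Both were higher with tumor in WT, by 0.45 and 0.26, and lower in Tlr3-deficient cells, at -1.06 and -0.91. A second Cenpa probe was well above background on WT with tumor alone and did not measure the other arrays.

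The chromosomal passenger kinase Aurkb lay at -5.05, -4.62, -4.23 and -5.34, near the detection limit, and was at least 2.14-fold lower with tumor in Tlr3-deficient cells. Its partner Birc5, or survivin, lay well above background at 0.21, 0.05, 0.57 and -0.34, with differences of -0.17 in WT and -0.90 ± 0.20 in Tlr3-deficient cells. Among spindle and cytokinesis genes, 7 of 7 were lower in Tlr3-deficient cells at a median of -0.88. Kif11, the Eg5 motor that separates spindle poles, is measured at chr19:37495755-37495814 (mm9) and lay at -3.91, -4.64, -3.12 and -5.19. It was lower with tumor in both genotypes, at -0.74 ± 0.32 in WT and by 4.19-fold in Tlr3-deficient cells (-2.07 ± 0.35). Its 2 other probes were dim on all 4 arrays, and their average with the bright probe gave -0.89. Racgap1, a regulator of the cleavage furrow, lay at -6.78, -4.57, -3.26 and -4.86. It was 3.04-fold lower with tumor in Tlr3-deficient cells, and not well above background in WT without tumor. A second probe, dimmer on average but well above background on both arrays without tumor, gave -0.92 in Tlr3-deficient cells and -0.63 in WT, where the first gave 2.21, so the probes disagree on WT. Tpx2, which activates Aurka on spindles, lay at -3.29, -2.94, -2.36 and -3.39, and was 2.04-fold lower in Tlr3-deficient cells, with 0.35 ± 0.23 in WT. The cytokinesis motor Kif20a lay at -1.16, -1.18, -0.61 and -1.50, its relative Kif23 at -2.96, -2.46, -2.39 and -3.15, and the spindle protein Nusap1 at -2.95, -2.45, -2.46 and -3.12. Their tumor differences were -0.88, -0.76 and -0.66 in Tlr3-deficient cells and -0.02, 0.50 and 0.50 in WT. For Kif23 and Nusap1 the WT array without tumor was thus almost as low as the Tlr3-deficient tumor array, and both other arrays were higher. The second probes of Kif20a and Kif23 gave -0.88 and -0.93. Prc1, which bundles microtubules of the midzone, lay at 1.32, 0.91, 1.08 and 0.72 and was lower by a like amount in WT (-0.41) and Tlr3-deficient cells (-0.36). With normexp its differences were -0.09 and -0.29.

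Over all 27 probes of the 22 mitotic genes well above background throughout, 24 were below 0 for tumor in Tlr3-deficient cells, at a median of -0.90. The 5 of these probes that do not represent their gene had a median of -0.93, with 4 of 5 below 0. The 3 probes above 0 were both probes of Bub1 and that of Bub1b. For tumor in WT the same 27 probes had a median of 0.18, with 12 below 0. The 5 probes that do not represent their gene had a median of 0.43 in WT, with 1 of 5 below 0. The part of the array on which a probe lay was looked at too. On the array of WT mice without tumor, repeated spots of a probe had an SD of 0.361 in array columns 1 to 51, against 0.108 in columns 52 to 85, while the Tlr3-deficient tumor array had 0.0781 and 0.0752. The mitotic median in Tlr3-deficient cells was -0.97 over 17 genes in the former part and -0.88 over 9 genes in the latter. The S-phase median there was 0.22 over 8 genes in the former part and -0.21 over 7 genes in the latter, with 6 of 7 lower, so the gap between the classes was narrower in columns 52 to 85. In WT, whose comparison uses the array with the larger scatter, the mitotic median was -0.01 in the former part and 0.26 in the latter. Genotype without tumor uses that array too, and there the mitotic median was 0.55 and 0.57 in these parts. So does the comparison of the Tlr3-deficient tumor array with WT without tumor, which was not split by position.

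Among S-phase genes, the origin group comes first. Over Cdc6, Cdt1, Cdc45 and Mcm2 to Mcm7 the median tumor difference was 0.20 in WT and 0.22 in Tlr3-deficient cells. In both genotypes 0 of 9 were called. Over all genes 5.58% were called higher and 1.55% lower in WT. In Tlr3-deficient cells 4.54% were called higher and 3.88% lower, so 0 of 9 does not set this group apart. The helicase subunits Mcm2, Mcm3, Mcm5 and Mcm7 differed by 0.24 or less in either direction in both genotypes. A second Mcm3 probe, much dimmer, gave 0.81 in WT and 0.02 in Tlr3-deficient cells. Mcm2 lay at -0.55, -0.35, -0.55 and -0.41, Mcm3 at -0.31, -0.20, -0.18 and -0.22, Mcm5 at -0.42, -0.19, -0.58 and -0.36, and Mcm7 at 2.12, 2.02, 1.81 and 1.80. Mcm4 lay at 1.5, 1.92, 1.75 and 1.72, and Mcm6 at 3.37, 3.1, 2.81 and 3.03. Cdt1, the licensing factor that geminin inhibits, lay at 1.39, 0.86, 0.58 and 1.28, lower with tumor in WT (-0.52 ± 0.20) and higher in Tlr3-deficient cells (0.70 ± 0.20). It was the S-phase gene with the largest difference between the tumor changes, 1.22, in the direction opposite to most mitotic genes. With normexp Cdt1 was not lower in WT (0.10), and in Tlr3-deficient cells it was at 0.70. The tumor changes then differed by 0.60, which was less in size than for Mcm4 (-0.86). Cdc6, which loads the helicase, lay near background at -4.83, -4.43, -4.90 and -4.55, and Cdc45, which activates it, at -4.51, -4.10, -4.75 and -4.22. Neither was called. Pcna, the sliding clamp of the fork, lay at 3.66, 3.38, 3.51 and 3.30, and the thymidylate synthase Tyms at 1.53, 1.34, 1.62 and 1.53, with a second Tyms probe giving -0.61 in WT. Together with the subunits of ribonucleotide reductase, these genes had medians of -0.13 in WT and -0.15 in Tlr3-deficient cells. The large subunit of ribonucleotide reductase, Rrm1, lay at 0.76, 0.72, 0.46 and 0.49. The small subunit Rrm2, which limits the enzyme, lay at -3.68, -3.76, -3.62 and -4.41, with differences of -0.07 ± 0.27 in WT and -0.79 ± 0.31 in Tlr3-deficient cells.

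The cyclins D and E act in G1. Ccne1, which starts replication with Cdk2, lay at -1.74, -2.21, -1.39 and -2.70, and Ccne2 at -3.87, -4.58, -3.74 and -4.93. Both were lower with tumor in each genotype, at -0.47 and -0.71 in WT and by 2.49-fold and 2.27-fold in Tlr3-deficient cells. A second Ccne1 probe, dimmer, differed by 0.07 in Tlr3-deficient cells, but was not well above background on the array without tumor there. A second Ccne2 probe differed by -0.55 in Tlr3-deficient cells. In WT that probe gave 1.15, but it was well above background on neither WT array. Both cyclins E, though of the S-phase class, were highest and lowest on the same arrays as most mitotic genes, and so was Ccnd2. Ccnd2, which carries mitogen signals to Cdk4 and Cdk6, is measured at chr6:127079694-127079753 (mm9) and lay at 2.79, 2.64, 3.46 and 2.09. It was 2.59-fold lower with tumor in Tlr3-deficient cells (-1.37 ± 0.20), its 3 probes ranging from -1.22 to -1.41, and differed by -0.15 in WT. Ccnd1 lay at 2.66, 2.56, 1.98 and 2.46, with its lowest value on the array where Ccnd2 was highest.

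The other genes of the pathway were taken from fixed lists. Of 46 further mitosis genes, 37 were lower with tumor in Tlr3-deficient cells, at a median of -0.50, and 21 were lower in WT, at a median of 0.02. Of 39 that could be called, 5 were lower in Tlr3-deficient cells. They were the motor Kif14 (-1.32), the kinetochore scaffold Knl1 (-1.27), the kinetochore protein Cenpf (-1.24), the passenger protein Cdca8 (-1.04) and the cytokinesis factor Ect2 (-1.03), which was named after its values were seen, each highest on the array labelled Tlr3-deficient without tumor. Of 40 further replication genes, 14 were lower, at a median of 0.16, and the thymidine kinase Tk1 was called higher (1.06). In WT their median was 0.05, with Rpa3, a subunit of the single-strand binding protein, called lower (-1.11). The gap between these mitosis and replication lists was -0.66 in Tlr3-deficient and -0.02 in WT cells. Several genes differed by genotype whether or not a tumor was present. The separase inhibitor Pttg1 lay at 1.37, 1.5, 4.54 and 4.70, the spindle protein Hmmr at -5.04, -5.74, -2.61 and -3.49, the chromatin assembly subunit Chaf1b at 0.69, 0.74, 1.83 and 2.08, and the repair gene Fanca at -0.16, 0.44, -3.61 and -3.90. In each, the WT arrays lay on one side and both arrays labelled Tlr3-deficient on the other.

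**Figure D4:**
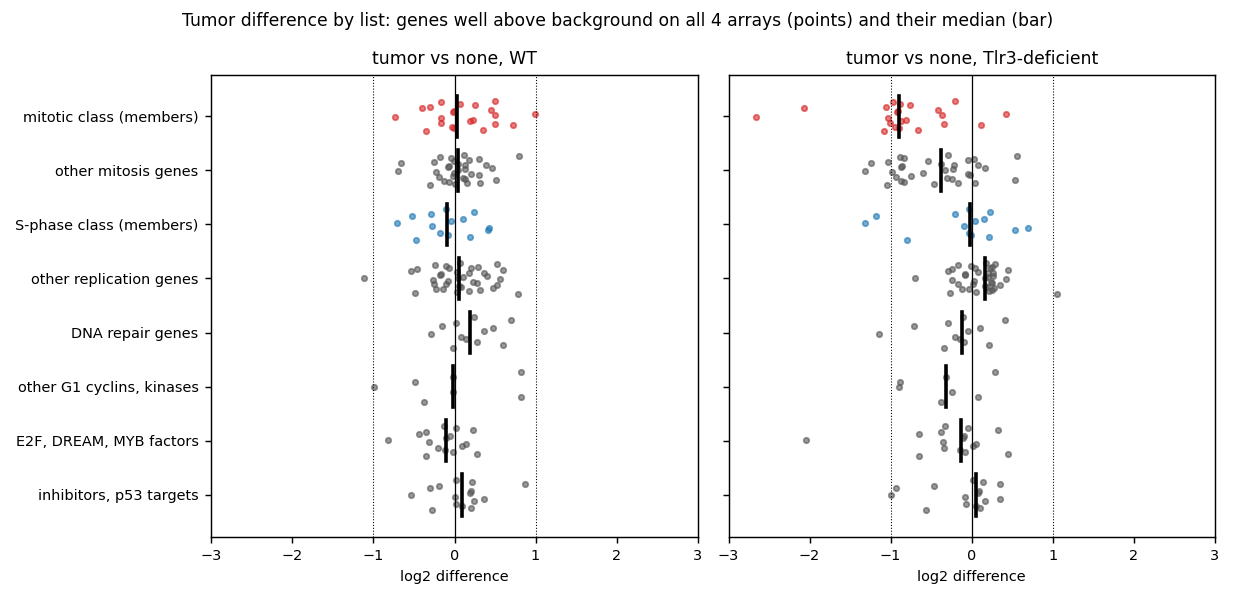
Log2 tumor difference (horizontal) of genes detected on every array (points) in WT (left) and Tlr3-deficient cells (right) for the 2 classes and 6 further lists of the pathway, with bars at the list medians and dotted lines at 2-fold. In the right panel the mitotic genes and the other mitosis genes lie mostly left of 0, with medians over all listed genes of -0.92 and -0.50, while the S-phase and replication genes lie on both sides.

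The regulators upstream are described next. Of 18 E2F, DREAM and MYB factors the median was -0.11 in WT and -0.24 in Tlr3-deficient cells, where 2 were called lower, the repressor E2f7 by at least 3.17-fold and Mycn by 4.13-fold. Mycn lay at -1.86, -2.69, -0.90 and -2.94. Of 16 inhibitors and p53 targets the medians were 0.06 and 0.03, with Cdkn2b, the inhibitor p15, called lower in Tlr3-deficient cells at -1.0 and 0 of 15 called in WT. Cdkn1a, the inhibitor p21, was named after its values were seen and lay at 2.86, 3.07, 3.04 and 2.47. Other G1 cyclins and kinases had medians of -0.02 and -0.27 with 0 called for tumor. The 15 repair genes of S and G2 phase had medians of 0.25 and -0.14, and Wee1, the kinase that holds Cdk1 inactive, was called lower in Tlr3-deficient cells (-1.15).

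Markers of other cells also differed between the arrays, some in the order of the mitotic genes and others not. For fibroblasts and pericytes the summed linear level of 8 markers was 32.1, 26.7, 55.7 and 25.1, highest and lowest on the same arrays as the median mitotic gene, with 4 of 8 called lower with tumor in Tlr3-deficient cells (Eln at -3.27, Col3a1 at -2.32, Col1a1 at -2.03 and Col1a2 at -1.59) and 0 of 8 in WT. For type I cells the sum of 8 markers was 313, 206, 423 and 263, with 3 of 8 called lower in WT and 4 of 8 in Tlr3-deficient cells. The erythroid sum was 149, 266, 292 and 129, with 3 of 7 called higher in WT, 2 of 7 lower with tumor in Tlr3-deficient cells and 5 of 7 lower for genotype with tumor. It was highest and lowest on the same arrays as the median mitotic gene as well. Neutrophil markers summed to 4.13, 114, 3.76 and 73.2. Those of their dividing precursors summed to 0.0849, 0.138, 0.125 and 0.677, with Elane not well above background on any array. Alveolar macrophage markers summed to 4.93, 5.43, 3.55 and 13.6, T and NK cell markers to 0.260, 0.443, 0.279 and 0.514, and plasma cell markers to 27.4, 26.1, 28.4 and 37.1. Each of these immune sums was highest on a tumor array. The endothelial sum was 27.2, 25.6, 42.4 and 39.7. The part of these cells in the mitotic difference was not tested.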

How the data were processed

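Each array held 1 colour, Cy3, on the Agilent mouse design 014868. Per the file headers, spot intensity was read with Agilent Feature Extraction 10.7.3.1. The deposited signal is a linear intensity from which that program had removed background and spatial trend, with no scaling between arrays. The deposited value table of the series holds log2 values whose making the sources used here leave unstated. Its columns had medians of 6.31 to 6.32, correlated with the log2 scanner signal at r = 0.9995 to 0.9998 and ran in the same direction, so it served as an alternative only.

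Control spots and outlier-flagged spots were left out, spots of a probe were averaged in log2, and each array's 75th percentile over 41174 gene probes was subtracted. Probes were named through RefSeq accession (27668), symbol (5589) or synonym (459), and 7458 kept the name in the files. The genes of each list were fixed by name, all 44 may be named, and from each further list up to 4 genes of at least 2-fold are named. The genes and lists were chosen with earlier results of these data known. Called means at least 2-fold. Where the representing probe was well above background on 1 side only, the difference is a bound, taken against the dim probe's signal or the lowest detected signal of that array, whichever is higher. Exon and UTR positions of the probes were not assigned.

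With 1 array per group no test was run; pooled or separate animals behind an array are unknown, so errors cover spots alone. The calling steps were tested on simulated data. Alternatives were normexp (limma 3.58.1, R 4.3.3), quantile and median centring, the value table, array columns 52 to 85, the mean of all probes and filters on dim probes. Spike-in centring and leaving out the array labelled Tlr3-deficient without tumor were added after seeing the data. Python 3.11.15 and pandas 2.3.3 were used.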

Additional observations from a re-analysis of the deposited data

Results flagged for a closer look

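In the mitotic class the median tumor difference was above 0 in WT (0.03, but -0.11 with median centring and -0.05 with normexp) and below 0 in Tlr3-deficient cells (-0.92), and the median over the genes of the difference between these changes was -1.14. Among genes detected on every array and at least 2-fold different with tumor in either genotype, the same opposite directions were seen for Kntc1, whose tumor changes differed by -3.65 between genotypes, Top2a (-1.79), Cenpa (-1.51) and Tpx2 (-1.38). Each rests on 4 arrays, 1 per group, and the difference between genotypes was not tested. All 5 values use the array labelled Tlr3-deficient without tumor, which holds Y-linked transcripts. With normexp the tumor difference in WT was -0.03 for Top2a and -0.04 for Tpx2, so their directions were not opposite there. For Cenpa it was 0.06 and for Kntc1 0.32.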

How the results depend on the processing

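Under the settings run, the medians over all 44 genes and the mitotic minus S-phase contrasts kept their sign, except the median for tumor in WT, which was close to 0. In the counts of called genes the prevailing direction was reversed for tumor in WT with spike-in centring and for genotype without tumor in columns 52 to 85. Higher and lower counts became equal for tumor in WT with the value table and with no filter. The same held with normexp for genotype without and with tumor. Of the medians 40 of 46 alternative values kept within the replicate-spot SD, of the contrasts 40 of 46, and of the counts 51 of 66 stayed within 1.5 times. The median over the 44 genes for tumor in WT moved from -0.02 to 0.40 with spike-in centring, which shifts all genes there from -0.08 to 0.33. For tumor in Tlr3-deficient cells it moved from -0.78 to -0.45 with normexp and to -0.30 against WT without tumor. For genotype without tumor it moved from 0.35 to 0.72 with spike-in centring, and for the difference of tumor changes from -0.72 to -0.28 with normexp and -1.03 with spike-in centring. The mitotic minus S-phase contrast for tumor in WT moved from 0.11 to 0.44 in array columns 52 to 85. For tumor in Tlr3-deficient cells it moved from -0.90 to -0.68 with normexp, -0.60 in columns 52 to 85 and -0.21 against WT without tumor, and for the difference of tumor changes from -1.12 to -0.69 with normexp and -0.77 in columns 52 to 85. For genotype without tumor the contrast was 0.64, and 0.39 in columns 52 to 85, also within that SD. A constant shift of an array cancels in this contrast.

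Genes called higher for tumor in WT numbered 0, and 1 with the value table, 3 with spike-in centring, 1 with the mean of all probes and 1 with no filter; called lower, 1 and 2 with the mean of all probes. For tumor in Tlr3-deficient cells the 13 called lower became 5 with normexp, 5 in columns 52 to 85, 8 with the mean of all probes and 3 against WT without tumor, and the 0 called higher became 1 with no filter. For genotype without tumor the 5 called higher became 1 with normexp, 12 with spike-in centring and 0 in columns 52 to 85, and for genotype with tumor the 1 called lower became 2 with the mean of all probes and 0 with normexp. Normexp shrinks dim genes by its offset of 50. It also starts from the mean spot and local background signals, without the scanner program's own removal of background and spatial trend. Bright genes moved with it too, as for tumor in WT Cdt1 from -0.52 to 0.10 and Mcm4 from 0.42 to 0.76. Columns 52 to 85 hold fewer genes. The causes of the changes were not tested. Of all genes called for tumor in WT, 78.2% were higher, against 66.5% with quantile normalization, 63.7% with median centring and 95.7% with spike-in centring. No paired analysis was possible because each group has 1 array, and for the same reason the slide as a block and leaving out replicates were not run. Genotype without tumor has no value without the array labelled Tlr3-deficient without tumor. Low signal limits Ccnb1, Ttk, Aurkb, Racgap1, Cdc6 and Polq, which were not well above background on all 4 arrays.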
